A study of Mus musculus with 4 samples.

Results

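The promoter regions described here were 237 of the 3389 differentially methylated regions that the study's authors deposited from a comparison of mouse microglia. A region was taken as a promoter region when its midpoint lay within 1000 bp either side of a transcript start of a protein-coding gene in GENCODE vM21 on GRCm38. The regions lay near starts of 211 protein-coding genes, which is 0.961% of the 21951 in the annotation. In the first of the 2 compared groups, methylation was lower at 118 of them and higher at the other 119.

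The study profiled CpG methylation by whole-genome bisulfite sequencing in microglia, the resident macrophages of the brain. There were 2 WT and 2 IRF8KO libraries, all from untreated C57BL/6J mice aged 3 months. Each library came from 40000 cells taken out of the brain without enzymes and sorted by flow cytometry, with 50 ng of DNA, 8 PCR cycles and paired reads of 75 bases. IRF8KO mice lack the transcription factor IRF8 by their genotype label, which names no Cre line or promoter, so the allele is given only as far as that. The column headers number the compared groups first and second and name no genotype. Every direction below is therefore given as the first group relative to the second, and which of them was IRF8KO is not stated. Whether each library came from its own animal is also not given. The tables hold 1 level per group and no value per library, so the levels of the 2 libraries of a group are unknown. No difference could be tested here. For each site there is also a deposited dispersion per group, which was not used. The tables hold no expression values, so the sorted cell type could not be checked against marker expression. Read coverage per site is unknown as well.

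Cytosine methylation at CpG dinucleotides near transcript starts is generally low where a promoter is active, and the CpG islands at many gene starts are kept unmethylated in most tissues. Promoters with few CpGs vary more between cell types, and lineage factors that bind there are associated with local loss of methylation. IRF8 is a transcription factor of the myeloid lineage that binds DNA mainly together with partners such as the ETS factor PU.1, at composite elements that join an ETS core to an IRF core.

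Sequences of 4 promoters are printed first, because at these the differential region reached into the 300 bp around a RefSeq start (250 bases before it and 50 after). They are the bases before the start in RefSeq on GRCm38.p6, 5′ to 3′ on the strand of the gene, with annotated UTR bases left out. Capitals mark CpGs, except at Klri1, where they mark GGAA followed after 2 bases by GAAA on the other strand.
Ly86 promoter, chr13:37345095-37345207, plus strand: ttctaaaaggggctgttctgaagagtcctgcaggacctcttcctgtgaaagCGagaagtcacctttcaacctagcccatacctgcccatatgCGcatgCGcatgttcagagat
Klri1 promoter, chr6:129717133-129717382, minus strand: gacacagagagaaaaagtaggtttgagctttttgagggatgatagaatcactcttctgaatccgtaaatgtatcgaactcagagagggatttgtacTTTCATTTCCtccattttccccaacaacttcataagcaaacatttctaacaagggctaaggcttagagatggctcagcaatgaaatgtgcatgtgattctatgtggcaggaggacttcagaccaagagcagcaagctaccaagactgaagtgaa
C3 promoter, chr17:57228137-57228386, minus strand: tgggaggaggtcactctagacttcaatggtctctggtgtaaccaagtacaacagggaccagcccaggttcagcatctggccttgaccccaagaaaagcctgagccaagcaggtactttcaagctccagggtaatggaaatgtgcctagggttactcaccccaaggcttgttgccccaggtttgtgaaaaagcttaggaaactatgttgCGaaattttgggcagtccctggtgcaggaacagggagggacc
Apoc4 promoter, chr7:19681480-19681710, minus strand: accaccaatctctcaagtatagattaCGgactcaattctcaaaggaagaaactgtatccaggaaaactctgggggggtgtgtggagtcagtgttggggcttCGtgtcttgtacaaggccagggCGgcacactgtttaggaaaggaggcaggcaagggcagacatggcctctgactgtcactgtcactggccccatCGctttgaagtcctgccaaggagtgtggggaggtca
The Ly86 and Klri1 stretches were less methylated in the first group and the C3 and Apoc4 stretches more. By the authors' deposited table of sites, the 6 listed CpG cytosines inside the Ly86 stretch ranged from 0.190 to 0.195 (first group) against 0.891 to 0.896 (second group). At Klri1 the deposited levels of 4 CpG cytosines were 0.325 against 0.805. At C3 the deposited levels of the 1 listed CpG cytosine in the stretch were 0.575 against 0.157. At Apoc4 the deposited table gave 8 CpG cytosines levels of 0.699 to 0.719 in the first group against 0.270 to 0.347 in the second. These stretches hold 3 CpGs at Ly86, 2 at Klri1, 1 at C3 and 4 at Apoc4. Such overlap with a RefSeq promoter was found for 17 of the 237 regions (7.2%), 9 of them lower and 8 higher in the first group.

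Promoter regions were divided almost evenly between the directions. The 118 lower regions made up 49.8% (exact Clopper-Pearson 95% interval 43.3 to 56.3%, counting error only). Among all 3389 regions 46.7% were lower in the first group, and among the 3152 other regions 46.4% (44.7 to 48.2%). The share at promoters therefore lay near the background, and its interval includes that of the other regions.

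The levels were mostly intermediate, and few regions went from methylated to unmethylated. The 118 lower regions had a median level of 0.320 in the first group against 0.755 in the second, where 0 is no methylation and 1 is full methylation. The 119 higher regions mirrored this, with medians of 0.729 in the first group against 0.281 in the second. The absolute difference had a median of 0.398 over the promoter regions, with quartiles of 0.358 and 0.451 and a range from 0.266 at Agtpbp1 to 0.625 at Ly86. Other regions had a median of 0.406. The less methylated group was under 0.2 at 41 promoter regions (17.3%, against 12.4% of other regions), and the more methylated group was above 0.8 at 63 (26.6%, against 35.3%). None passed both limits, and at 133 (56.1%) both groups lay between 0.2 and 0.8. The comparison that chose all these regions was this same contrast, so the size of the differences is a description.

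**Figure D1:**
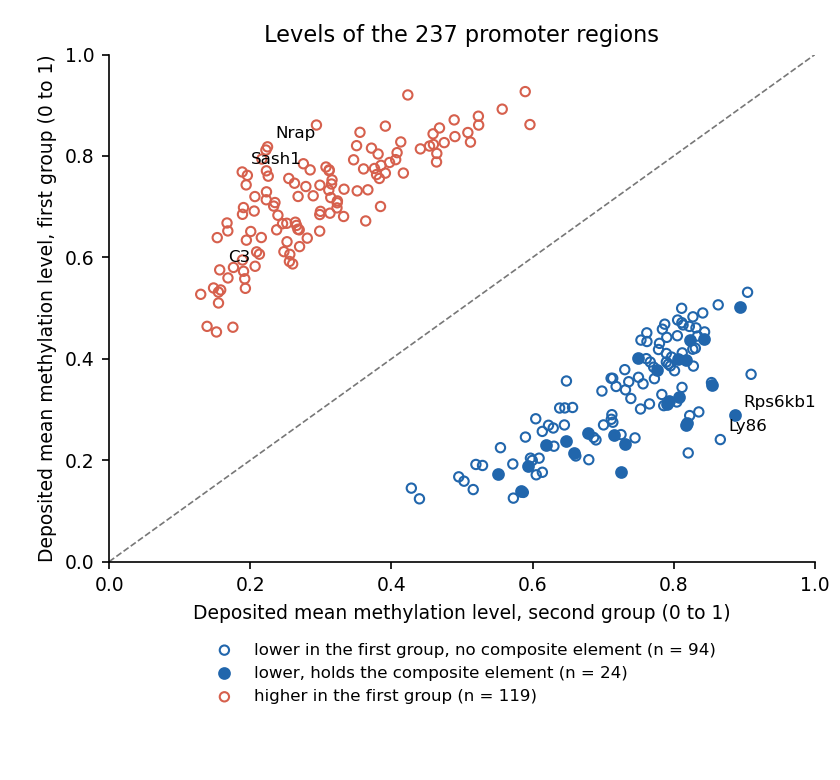
Deposited mean methylation level of each of the 237 promoter regions in the second group (horizontal axis, 0 to 1) and the first group (vertical axis, 0 to 1), with filled points for the 24 lower regions that hold the composite ETS-IRF element. The points form 2 separate clouds on either side of the dashed line of equal levels, and most keep clear of both 0 and 1.

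The regions were short and held few CpGs. Their median length was 232 bp (51 to 3042 bp), with a median of 11 listed cytosines (4 to 142), where each CpG can count on both strands. Positions on no reference CpG are also in these counts. In the reference genome they held a median of 5 CpGs, and 60 of them (25.3%) held fewer than 3, against 33.7% of other regions. Only 10 were longer than 1000 bp. They lay on 20 chromosomes, most often on chromosome 5 with 20 and on chromosomes 2 and 11 with 18 each. Chromosome X held 3. The balance of directions varied among chromosomes, from 1 lower region of 6 on chromosome 4 to 7 of 8 on chromosome 16.

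The authors' own site test gave a second view of each region. At least 1 listed cytosine with a false discovery rate (FDR) under 0.05 lay in 177 promoter regions (74.7%), against 77.9% of all regions. Some promoter regions thus held no single site past that limit. The 4280 listed cytosines inside promoter regions included 2356 past it (55.0%), against 18.7% of all listed sites in the deposited site table. The regions were built from the same contrast as the sites, so nothing is read from that gap. The median standard error of a site's difference was 0.0996, which is about as large in other regions at 0.102. Whether the authors smoothed the site levels is not stated. Levels at neighbouring sites moved together, as at C3, where all 7 listed sites had 0.575 against 0.157. For that reason the ranges of site levels given below are no measure of replicate spread.

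Most promoter regions lay at internal starts rather than at the 5′ end of a gene. Only 58 (24.5%) lay within 1000 bp of the outermost start of a gene. Another 82 (34.6%) lay at internal starts of coding transcripts, and 97 (40.9%) were near starts of non-coding transcripts of coding genes only, such as retained introns and processed transcripts. Lower regions were 23 of 58 at 5′ ends (39.7%), 45 of 82 at internal coding starts (54.9%) and 50 of 97 at the remaining starts (51.5%). The median absolute difference lay between 0.389 and 0.404 in these classes. Midpoints lay in introns at 144 regions, in coding sequence at 28, in UTRs at 24, outside genes at 24 and in non-coding exons at 17. The number of promoter regions depended on which transcripts were counted: 138 with coding transcripts only, 97 with the GENCODE basic set and 58 with 1 start per gene.

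Regions of both directions were found at every distance from the start. The midpoint was a median of 458.5 bp away, upstream in 101 regions and downstream in 136. Of the 43 regions within 100 bp of a start 22 were lower, of the 30 at 100 to 250 bp 20, of the 58 at 250 to 500 bp 33, and of the 106 at 500 to 1000 bp 43 (40.6%). The median absolute difference stayed between 0.392 and 0.405 over these bins. All regions were picked by this same contrast, so nothing about distance is read from that likeness. A start lay inside 60 of the regions, 36 lower and 24 higher. At the edge of the rule, the outermost regions counted had their midpoints 999.5 bp from the starts of Depp1 and Spint1 and deposited differences of 0.373 and -0.394, while the nearest region left out was 1007.5 bp away with a deposited difference of 0.41.

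**Figure D2:**
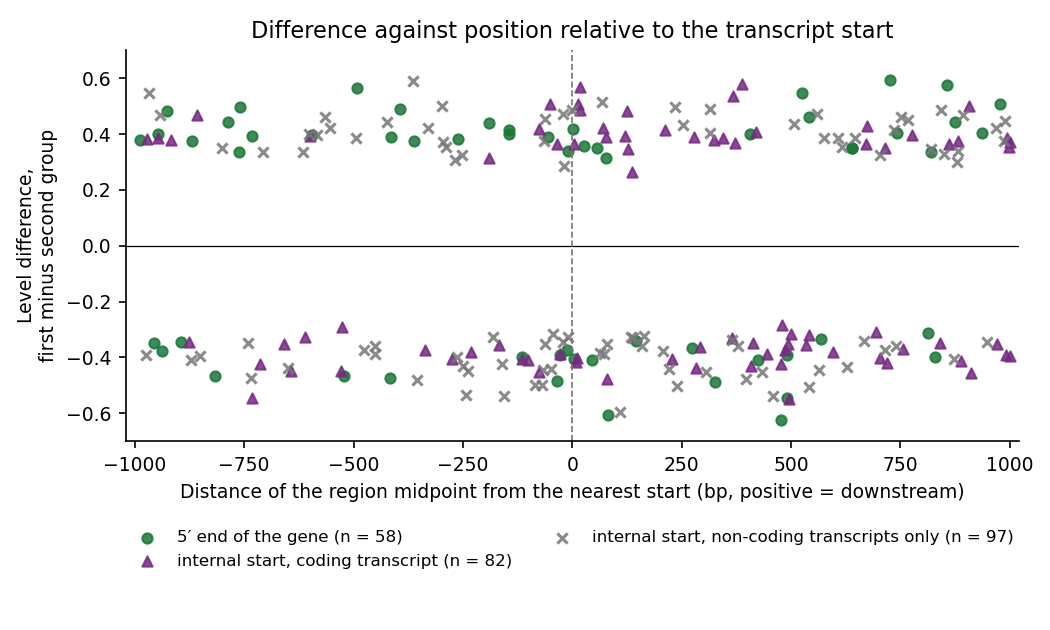
Level difference of each promoter region (first minus second group) against the distance of its midpoint from the nearest start in bp, positive downstream, by class of start. Points of both directions and all 3 classes are found over the whole 2000 bp window, in bands near 0.4 above and below 0.

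CpG islands were almost absent. Taking the 1000 bp around a point as island-like when GC content passed 50% and the observed to expected CpG ratio passed 0.6, 3 promoter regions qualified (1.3%), against 44.3% of 21938 gene 5′ ends and 37.4% of 93459 distinct transcript starts. They lay at internal coding starts of Kcnip3, Tmcc3 and Ripor2, and none at a gene 5′ end. The median CpG ratio was 0.262 around promoter regions and 0.211 around other regions, so a low ratio was not particular to promoter regions. For regions the 1000 bp were centred on the midpoint, and for gene 5′ ends and transcript starts on the start itself. The shares above therefore come from windows placed differently. All 3 island-like regions were lower in the first group. The Kcnip3 gene encodes a calcium-binding protein of the calsenilin and DREAM type. At its region, chr2:127481835-127482599, the authors' deposited table gave 0.176 against 0.614 over 142 cytosines, the most of any promoter region. The Tmcc3 and Ripor2 regions had deposited levels of 0.145 against 0.428 and 0.124 against 0.440, and none of their 69 and 30 listed cytosines reached an FDR of 0.05.

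Among genes of homeostatic microglia, 2 of 30 had a promoter region, Ly86 and Aif1, against 0.961% of all protein-coding genes. Both were lower in the first group. The list was chosen with earlier results of these data known, so nothing is read from this count or its direction. Ly86 encodes MD-1, the partner of the receptor CD180 (RP105) on myeloid and B cells. Its region, chr13:37344879-37346854, covered the gene's start and had the greatest absolute difference of all promoter regions. The authors' deposited table gave 0.241 in the first group against 0.866 in the second over 120 cytosines, a difference of -0.625. Site levels ranged from 0.181 to 0.496 in the first group against 0.801 to 0.917 in the second, and 119 of 120 listed sites passed an FDR of 0.05. The first group was thus low along nearly the whole region and highest at its upstream edge. Its densest stretch, downstream of the start, is printed with CpGs in capitals to show how far apart they lie.
Ly86, chr13:37345623-37345772, plus strand: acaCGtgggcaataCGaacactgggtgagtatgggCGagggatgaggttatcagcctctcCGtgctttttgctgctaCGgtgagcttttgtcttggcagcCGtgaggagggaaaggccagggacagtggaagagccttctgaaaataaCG

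Aif1 encodes IBA1, the calcium-binding and actin-bundling protein used as a marker of microglia. Its 2 promoter regions, chr17:35170963-35171957 and chr17:35173209-35173896, lay at internal starts. By the authors' deposited table the levels were 0.308 against 0.786 in the one and 0.188 against 0.593 in the other. Both were therefore lower in the first group, by deposited differences of -0.478 and -0.405. Of the listed cytosines, 29 of 35 and 10 of 19 passed an FDR of 0.05 in the deposited site table. The most CpG-dense stretch of the first of them follows, with CpGs in capitals.
Aif1, chr17:35171499-35171648, minus strand: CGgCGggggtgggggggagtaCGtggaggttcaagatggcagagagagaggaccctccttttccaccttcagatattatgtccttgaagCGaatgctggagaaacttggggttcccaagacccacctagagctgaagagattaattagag

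Of 25 annotated genes of disease-associated microglia, 3 had a promoter region (Apoe, Apoc1 and Cd63), against 0.961% of all protein-coding genes. All 3 were higher in the first group. The list was chosen with earlier results of these data known, so nothing is read from this count or its direction. None of the Apoe, Apoc1 and Cd63 regions reached a 300 bp RefSeq promoter. The longer Apoe region contained a start, but not the RefSeq start of the gene. Apoe encodes the lipid carrier apolipoprotein E. Its regions chr7:19696925-19697782 and chr7:19696718-19696784 had deposited levels of 0.560 against 0.168 and 0.453 against 0.152. In the longer one 27 of 58 listed sites passed an FDR of 0.05, and in the shorter one 0 of 16 did. Apoc1 encodes a small apolipoprotein of the same gene cluster, and at chr7:19691553-19692347 the deposited table gave 0.740 against 0.279, with 54 of 65 sites past the limit. Apoc4, a further apolipoprotein gene there, was 0.711 against 0.323 in the deposited table and was picked out because of its place beside them. Together these 4 promoter regions spanned 16398 bp, and the 2 further deposited regions within that span were higher as well. Cd63, which encodes a tetraspanin of late endosomes, had deposited levels of 0.539 against 0.193, but none of its 10 listed sites reached an FDR of 0.05. The densest stretches of Apoe and Apoc1 show CpG clusters (capitals) inside the bodies of these genes rather than before the start.
Apoe, chr7:19696925-19697074, minus strand: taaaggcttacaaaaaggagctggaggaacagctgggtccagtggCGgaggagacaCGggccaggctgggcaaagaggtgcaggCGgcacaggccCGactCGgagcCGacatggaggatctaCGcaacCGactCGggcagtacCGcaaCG
Apoc1, chr7:19691788-19691937, minus strand: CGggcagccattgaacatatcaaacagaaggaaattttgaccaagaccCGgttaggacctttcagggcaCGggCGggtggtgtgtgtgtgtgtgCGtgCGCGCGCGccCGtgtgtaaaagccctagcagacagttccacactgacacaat

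**Figure D3:**
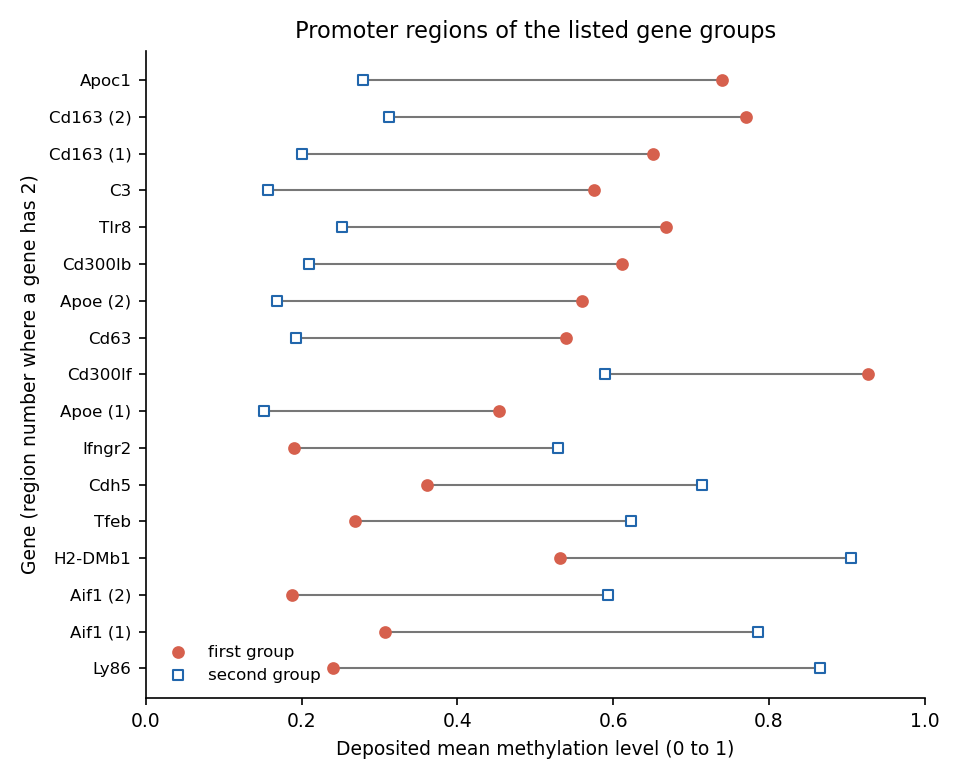
Deposited mean methylation level (0 to 1) in the first group (filled circles) and second group (open squares) for each promoter region of a gene in the microglial, immune, transcription factor or marker lists. The regions of Ly86, Aif1, H2-DMb1, Tfeb, Cdh5 and Ifngr2 lie lower in the first group and those of the 8 other genes lie higher.

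Genes of innate sensing and uptake were few, and most of their regions were higher in the first group. Pattern recognition and inflammasome genes had 1 of 30, Tlr8, the endosomal sensor of single-stranded RNA. Its start lay inside chrX:167263777-167264087, where the deposited levels were 0.667 and 0.252. Complement had 1 of 22, C3, the central component of the cascade, whose start lay inside chr17:57228091-57228177. There the authors' deposited table gave 0.575 against 0.157, with 5 of 7 sites past an FDR of 0.05. Among phagocytosis genes 2 of 34 were counted, Cd300lb and Cd300lf, which encode paired activating and inhibitory receptors of myeloid cells. Their deposited levels were 0.611 against 0.209 and 0.927 against 0.590, with 1 site each past that limit. Thus the regions of all 4 genes carried more methylation in the first group, with second-group levels from 0.157 to 0.590.

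Antigen presentation, cytokine and transcription factor genes had 1 region each, lower in the first group. H2-DMb1, a chain of the peptide-loading factor for MHC class II (1 of 22), had deposited levels of 0.531 against 0.905. Ifngr2, a chain of the interferon gamma receptor (1 of 39 chemokine and cytokine genes), had 0.190 against 0.529 in the deposited table over 47 cytosines. Tfeb, a transcription factor of lysosome and autophagy genes (1 of 45 myeloid transcription factors), had deposited levels of 0.269 against 0.623. None of these 3 regions held a site with an FDR under 0.05. Interferon response genes (0 of 29), lysosome genes (0 of 32) and the DNA methylation machinery (0 of 19) had no promoter region. The share over all protein-coding genes was 0.961%, so lists of this size would often hold none and nothing is read from their absence.

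Of the lists that mark other cells, neuron (0 of 16), astrocyte (0 of 11), oligodendrocyte (0 of 12) and lymphocyte genes (0 of 16) had no promoter region. At the share of 0.961% over all protein-coding genes, lists this short would often hold none, so nothing is read from these counts. Among 20 markers of monocytes and border macrophages 1 had a promoter region, Cd163, the scavenger receptor for haemoglobin bound to haptoglobin. Its regions chr6:124320185-124322326 and chr6:124319728-124320115 were higher in the first group, with deposited levels of 0.651 against 0.201 and 0.771 against 0.312. In the longer one 30 of 56 sites passed an FDR of 0.05. That region lay at an internal start of non-coding transcripts only, and the RefSeq promoter it reached was that of Gm52877, not of Cd163. Endothelial and mural genes had 1 of 12, Cdh5, the cadherin of endothelial junctions, with deposited levels of 0.362 against 0.714. How far other cells in the sort contribute to these values was not tested. Over all lists, 14 of 400 genes had a promoter region (3.5%), against 0.961% of all protein-coding genes. The lists were chosen with earlier results of these data known, so that share supports nothing by itself.

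By the authors' area score, Ly86 came first among the lower regions and Sash1 among the higher ones. Sash1 is on none of these lists, and encodes a scaffold protein of signalling downstream of TLR4. Its region chr10:8754853-8757894 was the longest of the 237, and the deposited levels were 0.768 against 0.189. All 115 listed sites passed an FDR of 0.05. At a second internal start, chr10:8761895-8762803, the deposited table gave 0.652 against 0.168. Anks1, which encodes an adaptor with ankyrin repeats, had deposited levels of 0.756 against 0.255 with 76 of 76 sites past the limit. Nrap, a gene of the nebulin family known from striated muscle, had the greatest difference of this direction, 0.594, from deposited levels of 0.818 and 0.224. Dab2, an endocytic adaptor, and B3gnt8, a glycosyltransferase, had deposited differences of 0.508 and 0.430. Other large differences were those of Ide, the insulin-degrading enzyme, Pilra, an inhibitory receptor of myeloid cells, and Mndal, a gene of the interferon-inducible p200 family, at 0.590, 0.578 and 0.567 in the deposited table. The CpG-dense part of the longer Sash1 region is shown because it contrasts with the sparse Ly86 stretch, with 12 CpGs in 150 bases against 7.
Sash1, chr10:8757593-8757742, minus strand: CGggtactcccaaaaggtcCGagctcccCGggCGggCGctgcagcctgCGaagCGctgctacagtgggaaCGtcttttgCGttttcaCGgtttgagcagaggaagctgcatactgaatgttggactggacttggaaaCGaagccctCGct

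Among regions lower in the first group, Ly86 was followed in area by Sorbs3 and Kcnip3. Sorbs3 encodes vinexin, an adhesion adaptor, and had deposited levels of 0.136 against 0.587 over 140 cytosines. Gsn, which encodes the actin-severing protein gelsolin, had deposited levels of 0.228 against 0.630 in chr2:35282229-35282818, which reached the RefSeq promoter of an internal start. At Adgrg1, the adhesion receptor GPR56, 3 regions were lower, the largest with deposited levels of 0.240 against 0.690. Nr3c1, the glucocorticoid receptor, had a region over its start with deposited levels of 0.214 against 0.821, and 34 of 34 sites passed an FDR of 0.05. Clip1, a microtubule plus-end protein, had 0.171 against 0.605 in the deposited table. Rps6kb1 (ribosomal protein S6 kinase), R3hdm2 (a protein with an R3H domain) and Il33 (an alarmin cytokine) had deposited differences of -0.597, -0.549 and -0.547.

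Where the 5′ end of a gene was involved, the named genes covered many functions. The 23 lower regions had a median level of 0.303 in the first group against 0.776 in the second, and 14 of them held a site with an FDR under 0.05. After Ly86 and Nr3c1 the greatest deposited differences were at Syce1l (-0.545), Fndc7 (-0.490), Klri1 (-0.483) and the urea transporter gene Slc14a1 (-0.475). The 35 higher regions had medians of 0.740 and 0.279, and 29 held such a site. Here Nrap, Pilra, Plekhg4 (0.566), Clec4n (0.548) and Tnfsf8 (0.506) had the greatest deposited differences. Clec4n encodes dectin-2, a receptor for fungal mannans, and Tnfsf8 the CD30 ligand. These genes were taken in the order of their values and were not on the lists, apart from those named above.

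Among the gene families counted by symbol, solute carriers and regulators of small GTPases had members in both directions. Of 371 solute carriers 7 had a promoter region (1.89%), 2 lower and 5 higher. The higher ones included Slc40a1, the iron exporter ferroportin, with deposited levels of 0.720 against 0.268, and Slc2a9, a urate transporter, with 0.731 against 0.352. Regulators of small GTPases had 4 of 104, Arhgap22 lower and Dock9, Rasgrp3 and Rgs1 higher. Zinc finger genes had 1 of 465, and olfactory and vomeronasal receptors (0 of 1464), protocadherins (0 of 68), homeobox clusters (0 of 39) and Rab GTPases (0 of 69) had none. Against a background of 0.961%, the large sensory receptor family had no promoter region although it holds many genes. That background counts every annotated start, so genes with more starts have more room for a region. With 1 start per gene only 53 genes had one. The number of starts per gene in a family was not taken into account, so these shares are not compared further.

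Where a gene had more than 1 promoter region, they shared a direction. There were 29 such genes, and none had regions in both directions. Regions of 1 gene often lay side by side, so they are not independent. Adgrg1 had 3 lower regions, and Ppef2, a protein phosphatase gene, had 3 higher ones. The overlapping pair Rps14 and Ndst1 shared 2 higher regions, and Ndst1 had 1 more region of its own. Lower pairs included those of Aif1, Akap8l, Anapc16, Dop1b, Fndc7, Gal3st4, Mettl21a, Nfix, Rara, Rubcn and Sag. Higher pairs included those of 2010111I01Rik, Apoe, Cd163, Dock9, Ect2l, Eif4g2, Htra3, Kdm2b, Mndal, Mtss1 and Sash1. Elsewhere in the gene, 66 genes with a promoter region had 143 further deposited regions, and 115 of these had the same direction. This held for 52 of 63 (82.5%) beside lower promoter regions and 63 of 80 (78.8%) beside higher ones. How often regions of the same gene share a direction over the whole series was not counted. A shared direction is therefore not shown to be particular to genes with a promoter region. For 8 promoter regions starts of at least 2 genes were within reach, so the gene cannot be told apart there.

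Of the motifs searched, the composite ETS-IRF element had the widest gap between the directions. The element was searched as GGAA followed, after any 2 bases, by GAAA, on both strands. It was found in 24 of 118 lower regions (20.3%, exact 95% interval 13.5 to 28.7%) and in 0 of 119 higher regions. A limit of 3 counts allows a share of up to 2.52% there, and the exact 95% interval reaches 3.1%. Of all 32851 RefSeq promoters of 300 bp, 2.72% held it, which lies inside the interval of the higher regions. In a fixed window of 300 bp around the midpoint the counts were 28 (23.7%) and 2 (1.7%), so the gap was present at equal length. Other regions of the series matched over their whole length at 17.4% of 1463 lower and 2.3% of 1689 higher ones, and in the 300 bp window at 21.1% and 2.4%, so it was not shown to be particular to promoters. These are descriptions of letters and name no bound site.

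**Figure D4:**
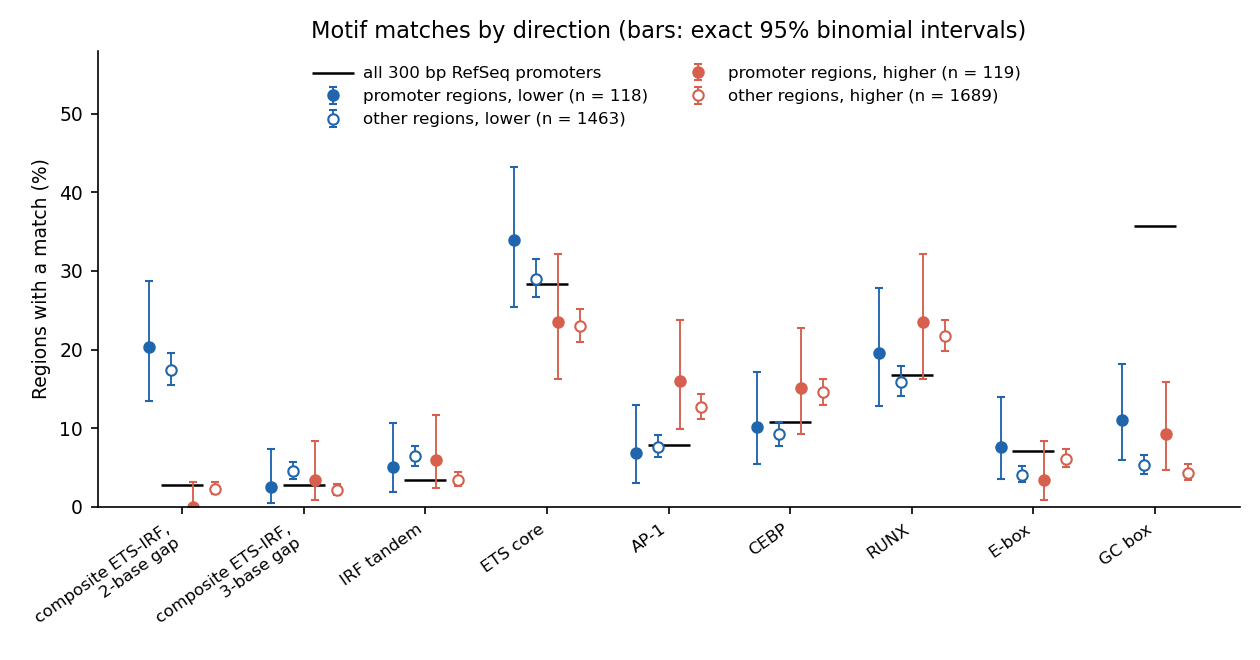
Share of regions (percent) whose sequence matched each motif, for promoter regions (filled) and other regions (open) lower or higher in the first group, with exact 95% binomial intervals and the share of all 300 bp RefSeq promoters as a black bar. The composite element with a gap of 2 bases shows 20.3% of lower and 0% of higher promoter regions, whereas for the other motifs the intervals of lower and higher promoter regions overlap. Regions vary in length, so points and black bars are not at equal length.

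Related forms of the element had no such gap. With 3 bases between GGAA and GAAA, 2.5% of lower and 3.4% of higher regions matched, against 2.76% of RefSeq promoters. The IRF tandem element, GAAA and GAAA with 2 bases between, matched 5.1% and 5.9% (3.44% of RefSeq promoters). The ETS core GAGGAA matched 33.9% and 23.5% (28.28%), and it can overlap the composite element. These shares are over whole regions of varying length. In 300 bp windows the ETS core matched 33.9% and 32.8%. Thus no other form of the element had a gap between directions as wide as that of the form with 2 bases.

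The 24 lower regions with the element were at 24 genes. They had a median absolute difference of 0.434 and medians of 0.281 and 0.783 in the first and second group, while the other 94 lower regions had 0.384, 0.338 and 0.753. They were also longer, with median lengths of 317.5 against 232.5 bp and 15 against 12 cytosines. All 24 held a site with an FDR under 0.05, as did 61 of the 94. The element was found at 6 of 23 gene 5′ ends, 9 of 45 internal coding starts and 9 of 50 remaining starts. Midpoints lay in introns at 13 of them, in coding sequence at 4, outside genes at 4, in non-coding exons at 2 and in a UTR at 1. Over the 25 matches the nearest listed cytosine was a median of 10 bp away, and in 4 it lay inside the match.

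The element is shown with its flanks for 5 of these genes, chosen by area among those where it lay outside UTRs, together with Rbpj, whose match lies just before the gene's 5′ end. Coding sequence was not left out. The regions of Ppp1r15a, Mapkapk2 and Rasgrf2 lay at internal starts of coding transcripts. Those of Rps6kb1 and Afp lay at internal starts of non-coding transcripts only. Sequences run 5′ to 3′ on the strand of the gene on GRCm38, and capitals mark the element, which reads as GGAA first or, on the other strand, as TTTC first.
Ppp1r15a, chr7:45524680-45524779, minus strand: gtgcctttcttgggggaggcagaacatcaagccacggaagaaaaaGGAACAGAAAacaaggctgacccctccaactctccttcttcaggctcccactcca
Rps6kb1, chr11:86519923-86520022, minus strand: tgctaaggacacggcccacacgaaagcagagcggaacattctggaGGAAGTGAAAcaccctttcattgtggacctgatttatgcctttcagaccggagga
Mapkapk2, chr1:131071675-131071774, minus strand: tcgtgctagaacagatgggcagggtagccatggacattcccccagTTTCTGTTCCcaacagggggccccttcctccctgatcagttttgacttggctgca
Afp, chr5:90491710-90491809, plus strand: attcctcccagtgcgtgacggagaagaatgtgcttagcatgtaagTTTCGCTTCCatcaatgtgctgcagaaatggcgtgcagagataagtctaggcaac
Rasgrf2, chr13:92030785-92030884, minus strand: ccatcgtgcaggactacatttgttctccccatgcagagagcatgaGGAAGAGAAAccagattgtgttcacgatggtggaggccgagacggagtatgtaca
Rbpj, chr5:53466033-53466132, plus strand: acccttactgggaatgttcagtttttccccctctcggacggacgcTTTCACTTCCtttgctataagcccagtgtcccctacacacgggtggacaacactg
Ppp1r15a encodes GADD34, a regulatory subunit of the phosphatase that acts on eIF2 alpha, and the CpG cytosine nearest to its element had deposited levels of 0.238 against 0.643. At Rps6kb1 the nearest CpG cytosine, 13 bp away, had 0.259 against 0.881 in the deposited site table, with a standard error of the difference of 0.097. Mapkapk2 encodes the kinase MK2 downstream of p38, and its nearest CpG cytosine was 43 bp away with deposited levels of 0.372 against 0.807. Afp encodes alpha-fetoprotein, and a CpG lies inside its element, with deposited levels of 0.323 against 0.859. All 4 were lower in the first group by over 0.4, with an FDR of 0.0494, 1.21e-06, 0.0273 and 0.0105 in the deposited site table. They lie in regions picked for being lower, so nothing is read from their direction. At Rasgrf2, an exchange factor for Ras, and Rbpj, the DNA-binding factor of Notch signalling, the deposited levels were 0.276 against 0.633 and 0.336 against 0.759, with an FDR of 0.380 and 0.214.

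Higher regions more often matched the AP-1 element TGANTCA, searched on both strands. It was found in 19 of 119 higher regions (16.0%, exact 95% interval 9.9 to 23.8%), in 8 of 118 lower ones (6.8%, 3.0 to 12.9%) and in 7.81% of RefSeq promoters of 300 bp. These intervals overlap. Regions with it were longer, with a median of 477 bp against 174.5 bp for the 100 without it, and a longer sequence has more room for a match. In windows of 300 bp, 24 higher (20.2%) and 9 lower (7.6%) matched. In the same windows of other regions, 15.1% of higher and 9.0% of lower ones matched. Thus the order of the directions was the same at equal length. The median absolute difference was 0.446 with the element and 0.392 without.

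AP-1 elements of 5 higher regions follow, taken by area among those outside UTRs, with the element in capitals and the strand of the gene. Coding sequence was not left out here either.
Sash1, chr10:8756173-8756269, minus strand: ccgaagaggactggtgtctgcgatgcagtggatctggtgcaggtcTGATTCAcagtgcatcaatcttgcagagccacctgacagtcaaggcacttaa
Anks1, chr17:28008128-28008224, plus strand: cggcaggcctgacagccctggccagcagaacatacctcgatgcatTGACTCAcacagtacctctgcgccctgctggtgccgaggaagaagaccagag
Nrap, chr19:56388931-56389027, minus strand: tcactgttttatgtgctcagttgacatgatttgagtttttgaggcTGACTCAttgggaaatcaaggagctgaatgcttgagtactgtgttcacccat
Tnfsf8, chr4:63859821-63859917, minus strand: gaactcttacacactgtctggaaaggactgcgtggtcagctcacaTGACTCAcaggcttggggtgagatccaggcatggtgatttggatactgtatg
Plekhg4, chr8:105372533-105372629, plus strand: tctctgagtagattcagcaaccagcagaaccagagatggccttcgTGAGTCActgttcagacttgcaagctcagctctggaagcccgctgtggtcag
In the deposited site table the CpG cytosines nearest to these had first-group levels of 0.799, 0.756, 0.825, 0.699 and 0.742, and second-group levels of 0.274, 0.198, 0.279, 0.189 and 0.197. All 5 were higher in the first group by over 0.5, and each had an FDR under 0.05. They lie in regions picked for being higher and of large area, so nothing is read from their direction or size. The nearest CpG cytosine lay 24 bp from the element at Sash1, 7 bp at Anks1, 72 bp at Nrap, 14 bp at Tnfsf8 and 1 bp at Plekhg4.

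The remaining motifs separated the directions less. The shares are over whole regions of varying length, and RefSeq promoters are 300 bp long. The CEBP element TTGCNNAA matched 10.2% of lower and 15.1% of higher regions (10.8% of RefSeq promoters), and the RUNX element TGTGGT 19.5% and 23.5% (16.76%). In 300 bp windows CEBP matched 9.3% and 15.1%, and RUNX 22.9% and 27.7%. Other regions of the series had 9.2% and 14.6% for CEBP and 15.9% and 21.7% for RUNX over their whole length. The E-box CACGTG matched 7.6% and 3.4% (7.15%), the MEF2 core TAAAAATA 1.7% and 5.9% (2.72%), and the SMAD pair GTCTAGAC 0.8% in each direction (0.21%). The GC box GGGCGG, a feature of CpG-rich promoters, matched 11.0% and 9.2%, and 12.7% and 10.9% of the 300 bp windows, against 35.66% of all RefSeq promoters. The share was therefore under that of RefSeq promoters in both directions. Other regions matched the GC box at 5.3% and 4.3% over their whole length. No test was made of these differences.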

How the data were processed

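Per the submitters' processing notes, reads were handled with Trim Galore and Bismark on mm10. For the region caller, its settings and its coverage limits, nothing is stated in these sources. The authors deposited a table of regions and a table of sites, each comparing 2 groups that the headers only number. Per the file headers these hold a mean methylation level per group (0 to 1), their difference and an area score for each region. For each listed cytosine the deposited site table holds levels, a dispersion per group, a standard error of the difference, a p-value and an FDR.

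Of the 269406 listed sites, 78.0% lay on a CpG of GRCm38 (1.71% after a shift of 100 bp), which fits the build. The rest lay on no reference CpG, and counts of listed cytosines and sites include them unless CpG cytosines are named. What they are was not tested. Their share varied: 108 of 120 listed sites lay on a CpG in the Ly86 region, but 1 of 4 in the Abhd15 region. Region midpoints were joined to GENCODE vM21 transcript starts with Python 3.11.15, pandas 2.3.3 and scipy 1.17.1, and motif matches were counted in the genome sequence and in RefSeq promoters. The join and the motif search were tested on simulated data. With 1 level per group, no test between groups was possible. Intervals are exact Clopper-Pearson 95% intervals over regions and cover counting error only. Regions are named by the gene of the nearest start. The text names, in each direction, the 8 regions of largest area, the 5 of largest difference with at least 5 cytosines, the 5 largest that contain a start, the 6 largest with the composite element, every region of a listed gene and every gene with at least 2 regions. Some genes that the rule names are not reported here. The other genes named were chosen after their values were seen. The members, gene lists, motifs and naming rule were chosen with earlier results of these data known.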

Additional observations from a re-analysis of the deposited data

How the results depend on the processing

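No paired analysis was possible because neither deposited table gives levels for single libraries, and leaving out a replicate was not possible for the same reason. Of 130 alternative values over 18 settings, 98 stayed within the interval or within 1.5 times the count of the reported value. The number of regions and genes was 131 and 119 with a half-width of 500 bp, 481 and 420 with 2000 bp, 58 and 53 with 1 start per gene, 97 and 88 with basic transcripts, 131 and 129 with at least 10 cytosines, and 114 and 107 with an absolute difference of at least 0.4. With coding transcripts only, a setting chosen after seeing the data, it was 138 and 125. The share of lower regions was 57.3% with 500 bp and 39.7% with 1 start per gene, so the balance of directions at promoters depends on how they are defined. The median absolute difference was 0.410 with at least 10 cytosines, 0.453 with a difference of at least 0.4 and 0.416 with a site of FDR under 0.05. In lower regions the median level of the first group was 0.274 with basic transcripts and 0.288 with a difference of at least 0.4, and that of the second group was 0.712 with basic transcripts. In higher regions the median level of the second group was 0.246 with a difference of at least 0.4 and 0.255 with at least 3 reference CpGs. The composite element was in 31.6% of lower regions with a difference of at least 0.4. Other forms of the motif gave 2.5% of lower and 3.4% of higher regions (3 bases between), 5.1% and 5.9% (IRF tandem), and 33.9% and 23.5% (ETS core). An FDR under 0.001 left 74 regions with such a site. The cause of these shifts was not tested, apart from those of settings that keep fewer or more regions by construction. Coverage and the spread between libraries limit every value. Coverage and the levels of single libraries are unknown, and the deposited dispersion was not used.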
